A study of Mus musculus with 6 samples.

Results

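The genes described here are markers of liver progenitor cells and bile ducts: the surface proteins Prom1 and Cd24a, the transcription factors Sox9, Sox4, Onecut1 and Tbx3, and the secreted protein Spp1. They were chosen as progenitor or ductal markers, and they were also selected on measured values, because Prom1 and Sox9 were already known to be lower in the selected lines. A gene counted as measured where the platform annotation of a probe set named its symbol alone. By that rule 6 of the 7 genes were measured, with 22 of the 34945 probe sets that name a single gene, and Spp1 was not analysed here. Where a gene had several, the brightest on average stood for it, and 18193 genes were compared in this way.

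The samples were mouse hepatocellular carcinoma cells, all grown in DMEM with 10% FBS: I1 and M1, migratory subpopulations selected from the BL185 line and titled subclones, and BL185, their parent. Each line was measured on 2 arrays, 6 in all. No subclone that had not been selected for migration was measured, so selection and subcloning cannot be told apart. The labels leave unsaid whether paired arrays were separate cultures, so a p-value here reflects array-to-array spread that could be purely technical. With 2 arrays per line the precision is limited.

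Liver progenitor cells can give rise to both hepatocytes and cholangiocytes, the cells that line the bile ducts, and they share many surface and transcriptional markers with the duct epithelium. Sox9 is switched on in the cells that form the ducts and is a target of Notch signalling. Onecut1 (also called HNF6) is needed for duct formation in the mouse embryo. Prom1, the CD133 antigen, and Cd24a, a small glycoprotein anchored in the outer membrane, are commonly used to sort progenitor-like and tumour-initiating cells.

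Promoter windows were available from RefSeq (GRCm38.p6, 250 bases before to 50 after an annotated start) for 3 of the 6 measured genes. The windows of Prom1 and Sox4 are shown because both genes were lower in both selected lines. Capitals mark matches, on either strand, to any of 6 short motifs. ONECUT factors bind sites with the core ATCAAT. The SOX factors prefer sites that contain ACAATG. TEAD factors, through which YAP acts, recognise the core GGAATG. RBPJ, the DNA-binding factor of Notch signalling, recognises TGGGAA. The GC box was searched for as GGGCGG, and the TATA box of core promoters was searched for as TATAAA. No 2 marked matches overlap. The Prom1 window lies on the minus strand at chr5:44101687-44101986 and the Sox4 window on the minus strand at chr13:28953650-28953949, and both are written 5′ to 3′ in the direction of transcription.
Prom1: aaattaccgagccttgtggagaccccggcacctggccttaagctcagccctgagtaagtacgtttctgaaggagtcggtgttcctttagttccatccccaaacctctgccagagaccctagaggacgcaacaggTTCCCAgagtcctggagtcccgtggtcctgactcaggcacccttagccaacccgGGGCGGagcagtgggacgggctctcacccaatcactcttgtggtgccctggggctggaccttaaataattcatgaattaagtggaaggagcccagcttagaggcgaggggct
Sox4: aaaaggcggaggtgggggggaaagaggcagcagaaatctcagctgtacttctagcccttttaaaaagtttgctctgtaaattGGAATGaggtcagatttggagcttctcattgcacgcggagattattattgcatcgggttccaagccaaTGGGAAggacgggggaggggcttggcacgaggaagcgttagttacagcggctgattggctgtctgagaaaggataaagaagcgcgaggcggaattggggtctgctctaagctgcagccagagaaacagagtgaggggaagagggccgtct

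The Prom1 window held a reverse-strand match to the RBPJ motif, beginning at −116 from the start, and a GC box at −62. A window at a second annotated Prom1 start, chr5:44094719-44095018, held none of the 6 motifs. The Sox4 window held a TEAD match at −168 and an RBPJ match at −100. Neither held a SOX or an ONECUT match. Of 32851 promoter windows of the same length, 25.6% held the RBPJ motif, 14.7% the TEAD motif, 35.7% the GC box, 12.6% the SOX motif, 7.54% the ONECUT motif and 13.6% the TATA box. Such matches describe the letters of the window alone.

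One array stood apart. M1 replicate 1 had the narrowest spread of signals, with an SD of 1.62 log2 units over probe sets against 1.83 to 1.97 on the other 5 arrays, and it correlated with M1 replicate 2 at r = 0.911, against 0.994 for the I1 pair and 0.997 for the BL185 pair (across probe sets, which are not replicates). The M1 differences from BL185 are therefore given with and without it for the probe sets that stand for the members, and elsewhere where stated. The 18S ribosomal RNA control read 11.27 and 11.51 in I1, 12.50 and 10.68 in M1, and 10.11 and 10.14 in BL185, and the 3′ minus 5′ signal of Actb was 1.47 and 1.43 in I1, 1.43 and 1.24 in M1, and 1.08 and 0.88 in BL185. Both measures were higher in the selected lines, beside every difference from BL185 given here, and their part in the results was not tested. Array medians lay between 7.87 and 8.11, and no detection calls were used, so values near or below that level may be background.

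The gene lists used here and below were chosen with earlier results of these data known. Markers of liver cell types were read against the array median, above which 57.1% of the 18193 genes lay on all 6 arrays. Of the 17 measured hepatocyte markers, 9 did so, a share near that of all genes. The nuclear receptor Hnf4a, a master regulator of hepatocyte identity, read 13.01 and 13.34 in I1, 11.94 and 12.76 in M1, and 12.83 and 12.91 in BL185. Albumin (Alb) was dim, with 8.07 and 8.10 in I1, 8.43 and 7.66 in M1, and 7.60 and 7.53 in BL185. Of the 7 measured cholangiocyte markers 3 were above the median on every array. The duct keratin Krt19 was among the brightest genes, with 15.04 and 15.08 in I1, 14.59 and 14.77 in M1, and 14.97 and 15.01 in BL185, whereas the duct keratin Krt7 read between 6.80 and 7.42 on all arrays. Of the stellate, endothelial and leukocyte markers, 4 of 10, 2 of 8 and 4 of 7 were above the median on every array. By limma 1 hepatocyte marker fell in M1, the fibrinogen gene Fgb (−1.78 ± 0.22, SE, adjusted p = 0.0469, and −1.93 in I1 with 0.0501). It was not typical of its list: the median over the 17 hepatocyte markers was 0.28 in I1 and 0.47 in M1 relative to BL185. Without M1 replicate 1 that median was 0.09 in M1. The macrophage lysosomal marker Cd68 fell in both lines, with 7.78 and 7.41 in I1 and 7.51 and 7.37 in M1, against 10.74 and 10.56 in BL185 (limma adjusted p = 0.0262 and 0.0147). Leaving out either BL185 array or either I1 array ended the M1 calls of both genes and the I1 call of Cd68. The M1 calls stayed when M1 replicate 1 or 2 was left out instead. The M1 difference was then −3.28 or −3.14 for Cd68 and −1.55 or −2.01 for Fgb. The mean over the 7 macrophage and leukocyte markers was 8.03 to 8.10 in I1, 7.82 to 8.29 in M1 and 8.25 to 8.29 in BL185. Cd68 alone of the 7 had lower means in the selected lines. The others were higher on average, by 0.10 to 0.41 in I1 and 0.04 to 0.50 in M1, and the list medians were 0.29 and 0.21. Without M1 replicate 1 the median in M1 was 0.02, and of these others Csf1r alone was then lower (−0.13). Whether Cd68 had a part in the lower Prom1, Sox9 and Sox4 values was not tested.

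The members fell into 3 patterns. Prom1, Sox9 and Sox4 were bright in BL185 and lower in both selected lines. Cd24a was bright in all 3 lines. Onecut1 and Tbx3 were at about the array medians or below in BL185 and, apart from M1 replicate 1, close to them in the selected lines. Because Prom1 and Sox9 were chosen for being lower, the differences from BL185 are given as a description without a test, and both sets of differences share the BL185 arrays.

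**Figure D1:**
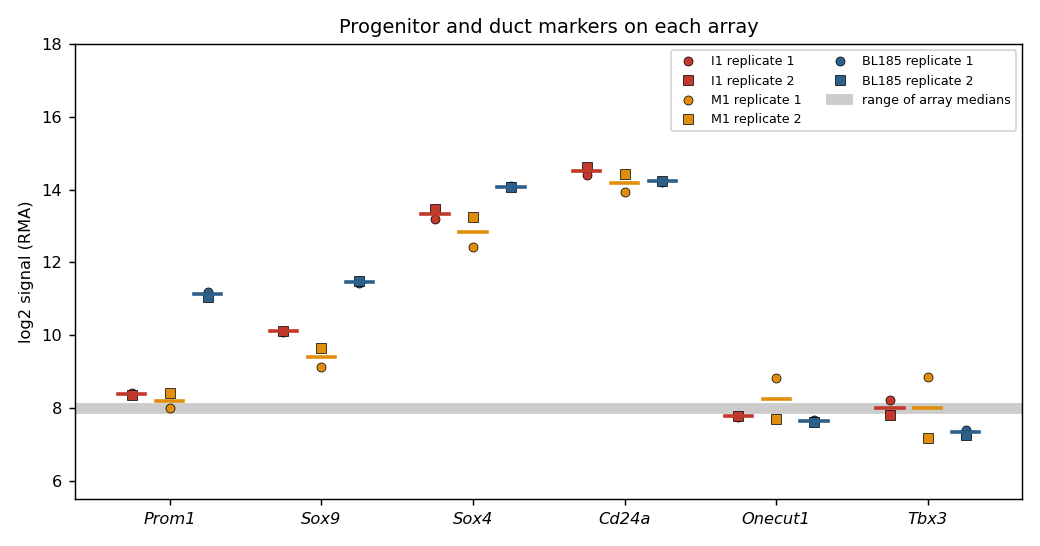
Log2 signal (y axis) of the probe set that stands for each of the 6 measured genes (x axis) on each array: I1, M1 and BL185 from left to right, circles for replicate 1, squares for replicate 2 and a bar for the mean of the 2 arrays. Prom1, Sox9 and Sox4 sit lower in I1 and M1 than in BL185, Cd24a sits near 14 in each line, and Onecut1 and Tbx3 lie about the grey band of array medians except on M1 replicate 1.

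Prom1 encodes a cholesterol-binding glycoprotein of membrane protrusions. Its probe set read 8.41 and 8.36 in I1 and 7.99 and 8.40 in M1, against 11.19 and 11.05 in BL185. All 4 arrays of the selected lines were below both BL185 arrays, and the I1 and M1 values overlapped. The mean was 8.39 ± 0.03 in I1 and 8.20 ± 0.29 in M1, against 11.12 ± 0.10 in BL185 (SD, n = 2), a difference of −2.74 in I1 (6.67-fold lower) and −2.93 in M1 (7.60-fold lower). Without M1 replicate 1 the difference in M1 was −2.72. Ranked among all probe sets of its array, Prom1 stood at the 60.3 and 59.4 percentile in I1 and the 46.5 and 59.6 percentile in M1, against 87.1 and 86.2 in BL185. Its level in the selected lines was thus close to the array medians, and the size of the difference is not exact.

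Sox9 encodes an SRY-related factor of the SOXE group that marks duct cells. Its brightest probe set read 10.09 and 10.12 in I1 and 9.13 and 9.65 in M1, against 11.42 and 11.48 in BL185. The 3 lines did not overlap: I1 lay between M1 and BL185. The difference from BL185 was −1.35 in I1 (2.54-fold lower) and −2.06 in M1 (4.18-fold lower), or −1.81 without M1 replicate 1. A second probe set, 1424950_at, read 8.87 and 8.65 in I1 and 8.87 and 8.19 in M1, against 10.64 and 10.35 in BL185, and there I1 and M1 overlapped. The third, 1433889_at, stayed below the array medians on all 6 arrays, between 7.14 and 7.83, and showed no separation of any line.

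Sox4 encodes a factor of the SOXC group that acts with Sox9 in bile duct development in the mouse. Its brightest probe set read 13.19 and 13.46 in I1 and 12.41 and 13.24 in M1, against 14.09 and 14.07 in BL185. Both selected lines were below BL185 on every array, and I1 and M1 overlapped. The difference was −0.75 in I1 (1.68-fold lower) and −1.25 in M1 (2.38-fold lower), or −0.84 without M1 replicate 1. The gene stayed bright, at the 97.1 percentile or higher on every array.

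Sox4 had 8 probe sets, and they did not give a single size. In M1 all 8 were below BL185 without overlap, by −0.15 to −2.44. In I1 7 of the 8 were below and 1, 1455867_at, was above (9.58 and 9.56 in I1, against 9.45 and 9.31 in BL185). The widest gap was that of 1419157_at, with 8.35 and 8.24 in I1 and 7.80 and 8.61 in M1, against 10.40 and 10.89 in BL185. The 4 probe sets brightest in BL185 differed by −0.38 to −0.75 in I1 and −1.11 to −1.34 in M1. Where these probe sets lie along the transcript was not analysed here. The share of all probe sets whose arrays do not overlap, by any gap, was not counted. Nothing is therefore read from such counts of probe sets, here or below.

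**Figure D2:**
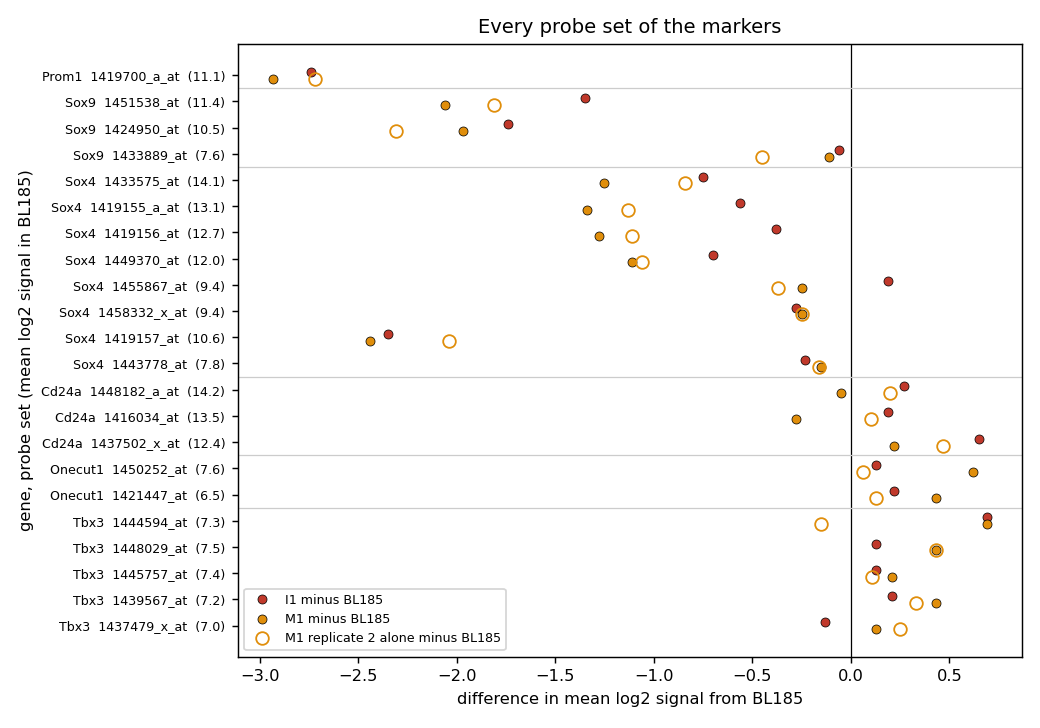
Difference in mean log2 signal from BL185 (x axis) for all 22 probe sets of the 6 measured genes (y axis, with the BL185 mean in brackets): red for I1, orange for M1 and open circles for M1 replicate 2 alone. Prom1, the brighter Sox9 and Sox4 probe sets and 1419157_at lie left of zero in both lines, and the probe sets of Cd24a, Onecut1 and Tbx3 lie between −0.28 and 0.69.

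Cd24a was the brightest member, with 14.39 and 14.61 in I1 and 13.92 and 14.42 in M1, against 14.22 and 14.23 in BL185. I1 lay above BL185 by 0.27 (1.21-fold), and M1 spanned the BL185 values, with a mean difference of −0.05, or 0.20 without M1 replicate 1. The probe set stood at the 99.3 percentile or higher on every array, a range in which array signals can saturate. Its 2 other probe sets differed by 0.19 and 0.65 in I1 and by −0.28 and 0.22 in M1, and the one named 1437502_x_at belongs to a class of probe sets that can take up signal from similar transcripts.

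Onecut1 read 7.76 and 7.77 in I1 and 8.81 and 7.69 in M1, against 7.66 and 7.60 in BL185. The M1 mean of 8.25 ± 0.79 (SD, n = 2) was set by replicate 1: without it, M1 differed from BL185 by 0.06, and I1 differed by 0.13. The other Onecut1 probe set was dimmer still, between 6.45 and 7.19. Tbx3 encodes a T-box repressor active in hepatoblasts. Its brightest probe set read 8.22 and 7.80 in I1 and 8.84 and 7.17 in M1, against 7.39 and 7.26 in BL185. The M1 arrays stood on both sides of the BL185 values, and the M1 difference was 0.69 with both arrays and −0.15 without M1 replicate 1. The 4 other Tbx3 probe sets lay between 6.84 and 7.98 on all arrays. At such levels signal cannot be told from background, which does not show that Onecut1 and Tbx3 were silent.

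As a background to these values, limma called 0.511% of the 18193 genes in I1 and 0.879% in M1 relative to BL185 (Benjamini-Hochberg adjusted over all genes, threshold 0.05). Of the 6 members 1 (Prom1) passed in I1 and 2 (Prom1 and Sox9) in M1, and since the choice used these contrasts nothing is read from those counts. Without M1 replicate 1 the shares were 46.6% of all genes in I1 and 24% in M1, with 4 and 3 members. By a simpler rule (arrays of the lines not overlapping and a mean at least 1 log2 unit lower), 5.82% of all genes were lower in I1, 10.4% in M1 and 5.12% in both. Prom1 and Sox9 met it in I1, and these and Sox4 in M1. The members' median difference was −0.31 in I1 and −0.65 in M1, beside 0.059 and 0.067 for all genes. Without M1 replicate 1 it was −0.49 in M1, beside 0.033. The choice used these contrasts, so nothing is read from these medians or from the simpler rule either.

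The stated reason for the choice did not name the contrast between the selected lines, though earlier results of these data were known. This contrast asks whether the markers differed between I1 and M1. By limma on all 6 arrays, 0 of the 6 members and 0% of the 18193 genes were called between I1 and M1, while 409 genes and 1 member had an unadjusted p under 0.05. That member was Sox9, whose I1 mean of 10.11 and M1 mean of 9.39 differed by 0.72 (SE 0.23, 95% interval 0.15 to 1.29, unadjusted p = 0.0227, adjusted p = 1, limma), with both I1 arrays above both M1 arrays. For Prom1 the difference was 0.19 with an interval of −0.34 to 0.72. For Sox4 it was 0.50 (−0.29 to 1.28) and for Cd24a 0.33 (−0.26 to 0.91). The intervals of Onecut1 (−1.45 to 0.48) and Tbx3 (−1.40 to 1.40) were the widest of the 6, and the M1 arrays disagreed most there. The members' median difference was 0.26, beside −0.002 for all genes, and without M1 replicate 1 it was 0.08, beside −0.031.

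Without M1 replicate 1, with the lone M1 array taken to vary as much as those of I1 and BL185, 20.6% of all genes passed in I1 against M1, as did 2 members. Sox9 was then higher in I1 by 0.46 (95% interval 0.17 to 0.75, limma adjusted p = 0.03). Tbx3 was higher by 0.83 (0.47 to 1.20, limma adjusted p = 0.00442), at levels of 8.22 and 7.80 in I1 and 7.17 in M1 that lie near background. Without M1 replicate 2 in its place the call on Tbx3 turned round (−0.83, limma adjusted p = 8.87e-04), and 57.0% of all genes and all 6 members were called. Sox9 was then higher in I1 by 0.97 (4.67e-05), Sox4 by 0.91 (1.67e-04), Cd24a by 0.58 (0.00388) and Prom1 by 0.40 (0.0261), and Onecut1 differed by −1.05 (2.61e-05). By the probe sets that stand for them, Sox9, Sox4 and Cd24a were higher in I1 whichever M1 array was left out, Sox9 by the most. Other probe sets read otherwise. Of the 3 Sox9 probe sets 1 was higher in I1 than in M1 without overlap and 2 overlapped. Of the 8 Sox4 probe sets 4 were higher without overlap, by 0.41 to 0.90, or 0.36 to 0.73 without M1 replicate 1. Of the rest 2 were lower, by −0.03 and −0.08, and 2 overlapped. With replicate 2 kept and replicate 1 left out, Prom1 differed by −0.02 (−0.32 to 0.28), Sox4 by 0.09 (−0.24 to 0.41), Cd24a by 0.08 (−0.24 to 0.39) and Onecut1 by 0.08 (−0.22 to 0.37). By arrays that do not overlap and means at least 1 log2 unit apart, 1.35% of all genes and 0 members differed between the selected lines.

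**Figure D3:**
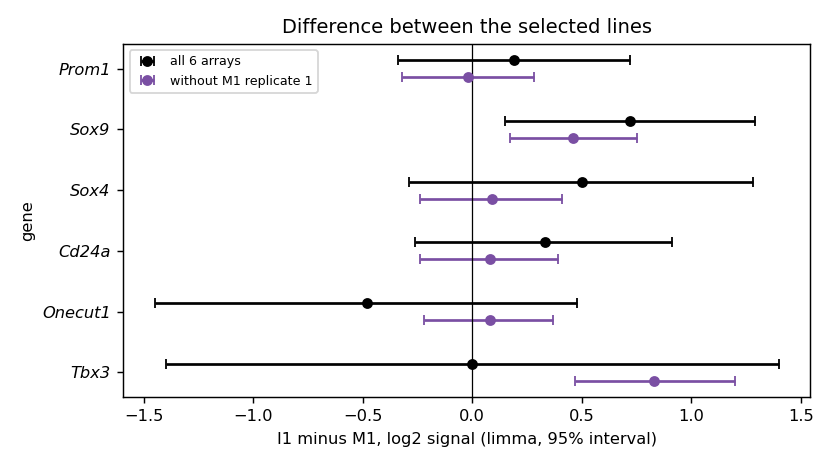
Difference in log2 signal, I1 minus M1 (x axis), for the 6 measured genes (y axis) with 95% intervals from limma, in black with all 6 arrays and in purple without M1 replicate 1. The Sox9 intervals, 0.15 to 1.29 and 0.17 to 0.75, lie to the right of zero, and the Tbx3 interval does so only without M1 replicate 1.

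Relatives of the members were read from a list of 27 genes, all measured, that share a family with them. In M1 1 of the 27 rose and 0 fell, and in I1 0 rose and 0 fell (limma, adjusted p of 0.05), with list medians of 0.21 in I1 and 0.35 in M1 beside the all-gene medians above. With M1 replicate 1 left out, the list median in M1 was 0.06, beside 0.033 for all genes. The riser was Sox11, the SOXC relative of Sox4, an embryonic and neural transcription factor. It read 8.86 and 8.96 in I1 and 10.27 and 11.08 in M1, against 8.28 and 8.15 in BL185. In M1 it was 2.46 ± 0.30 (SE) above BL185 (limma adjusted p = 0.0462). All 6 of its probe sets were above BL185 on both M1 arrays, by 1.11 to 2.46. All 8 Sox4 probe sets were below, by −0.15 to −2.44. Between I1 and M1 it differed by −1.77 (limma adjusted p = 0.621), or −2.17 without M1 replicate 1, and all 6 probe sets were lower in I1 without overlap. The call in M1 was just inside the threshold and was lost when either BL185 array or either I1 array was left out. It stayed without M1 replicate 1 or 2, with a difference of 2.87 or 2.06. The third SOXC gene, Sox12, read 9.14 and 8.84 in I1 and 9.01 and 8.68 in M1, against 8.68 and 8.62 in BL185.

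The closest relatives of the other members did not pass the test. Onecut2, which overlaps with Onecut1 in liver development, was well above background, at 10.98 and 10.58 in I1 and 10.04 and 11.03 in M1, against 10.86 and 10.53 in BL185, and the lines overlapped. Prom2, the other prominin, read 8.34 and 8.40 in I1 and 9.64 and 8.16 in M1, against 7.96 and 7.95 in BL185. Tbx2, the T-box gene nearest to Tbx3, lay at 6.61 to 6.75 on all arrays, below every array median.

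Other progenitor and duct genes, a list of 36 of which 33 were measured, mostly did not pass the test. In I1 0 rose and 0 fell, and in M1 1 rose and 0 fell (limma, adjusted p of 0.05), with medians of 0.20 and 0.23. When M1 replicate 1 was left out, the median in M1 was 0.05, beside 0.033 for all genes. The gene that rose in M1 was Bicc1, an RNA-binding protein whose loss causes cystic kidneys and bile duct defects in the mouse. It read 13.70 and 13.89 in I1 and 13.66 and 14.16 in M1, against 11.98 and 12.01 in BL185. It was higher in M1 by 1.91 ± 0.23 (SE, limma adjusted p = 0.0452) and in I1 by 1.80 ± 0.23 (adjusted p = 0.0601), and all 3 of its probe sets were above BL185 in both lines. Between I1 and M1 it differed by −0.11 (adjusted p = 1). In M1 the call was lost without BL185 replicate 1 or 2 (limma adjusted p = 0.589 and 0.59) or either I1 array (0.246), and in I1 it was gained without either M1 array (4.41e-08).

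**Figure D4:**
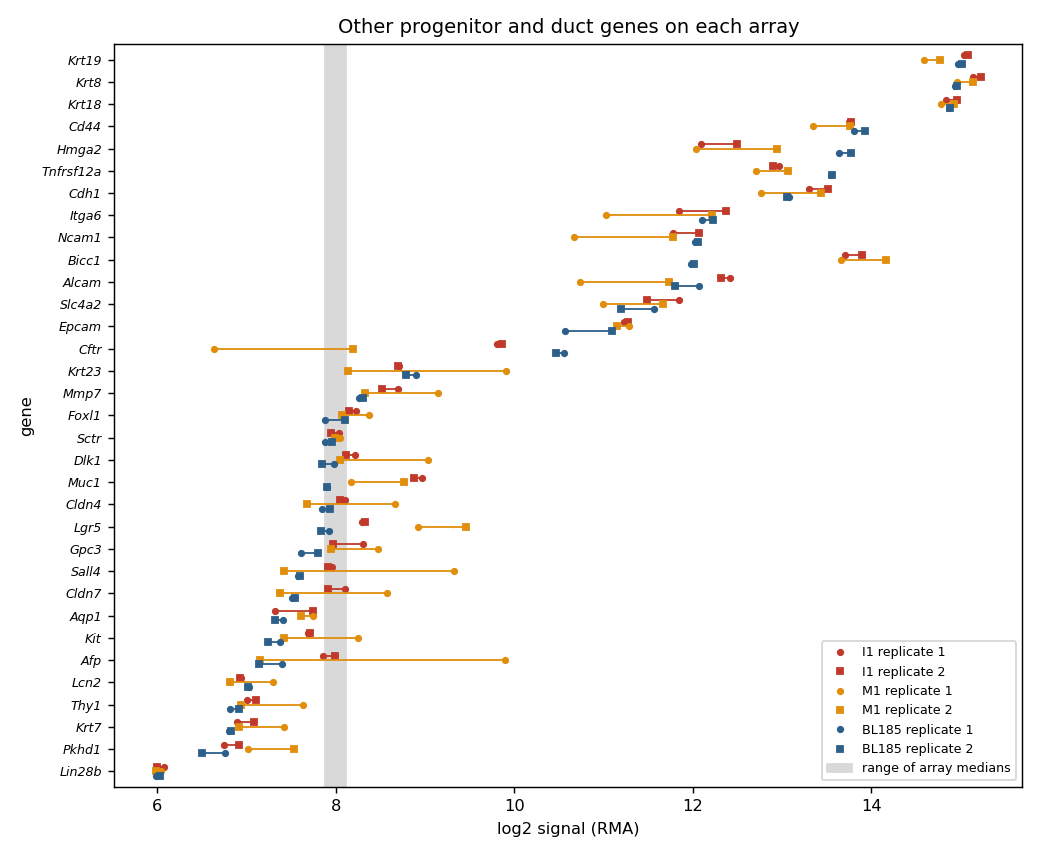
Log2 signal (x axis) of the 33 measured progenitor and duct genes outside the members (y axis, ordered by BL185 level), with I1 above M1 above BL185 in each row, a circle for replicate 1, a square for replicate 2 and a line joining them. Krt19, Krt8 and Krt18 lie between 14.59 and 15.23 in every line, Bicc1 lies higher in I1 and M1 than in BL185, and the band marks the array medians.

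The epithelial keratins Krt8 and Krt18 read 14.84 to 15.23 in I1, 14.78 to 15.14 in M1 and 14.87 to 14.96 in BL185. The adhesion protein E-cadherin (Cdh1) read 13.30 and 13.51 in I1 and 12.76 and 13.43 in M1, against 13.08 and 13.05 in BL185. The hyaluronan receptor Cd44, which also binds Spp1, read 13.75 and 13.77 in I1 and 13.34 and 13.76 in M1, against 13.80 and 13.93 in BL185. For the progenitor surface protein Epcam the 2 probe sets disagreed. The brighter, 1447899_x_at, read 11.23 and 11.27 in I1 and 11.28 and 11.15 in M1, against 10.57 and 11.09 in BL185. The other, 1416579_a_at, read 8.68 and 8.81 in I1 and 7.65 and 7.87 in M1, against 9.60 and 9.32 in BL185, so the direction of Epcam is not settled here. The fetal protein Afp read 7.86 and 7.99 in I1 and 9.89 and 7.15 in M1, against 7.39 and 7.14 in BL185, with M1 replicate 1 the highest. Its 5 probe sets disagreed: 1416645_a_at read 7.53 and 7.28 in I1 and 7.40 and 9.86 in M1, against 7.81 and 7.46 in BL185, and there, as in 2 others, M1 replicate 2 was the highest.

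Notch and YAP signalling act on several of the members, and their 22 listed genes were all measured. By limma 0 of the 22 passed in either line, with medians of 0.07 in I1 and 0.01 in M1, and 4 genes in I1 and 8 in M1 had an unadjusted p under 0.05, as did 11.6% and 15.4% of all genes. Leaving out M1 replicate 1, the median in M1 was 0.08, beside 0.033 for all genes. The Notch ligand Jag1, whose loss in the liver depletes bile ducts, read 11.81 and 11.99 in I1 and 9.87 and 11.57 in M1, against 13.49 and 13.16 in BL185. By this probe set, the brightest, all 4 arrays of the selected lines were below BL185 (differences of −1.43 in I1 and −2.61 in M1, limma adjusted p = 0.427 and 0.129). Without M1 replicate 1 the M1 difference was −1.75. The other Jag1 probe sets gave other sizes. For 1421106_at I1 read 7.56 and 7.53 and M1 7.26 and 7.53, below the array medians, against 10.41 and 10.54 in BL185 (−2.93 and −3.08). For 1421105_at I1 was lower by −0.47 and M1 overlapped BL185 (−0.28). The Notch target Hes1 read 11.06 and 11.21 in I1 and 10.44 and 11.06 in M1, against 10.70 and 10.81 in BL185. The receptor Notch2 read 10.68 and 10.85 in I1 and 10.08 and 11.35 in M1, against 11.31 and 10.99 in BL185. By its other probe set, 1451889_at, I1 was higher by 0.31. There M1 overlapped BL185 (0.54, or −0.11 without M1 replicate 1). Yap1, the transcriptional coactivator of the Hippo pathway, read 12.32 and 12.53 in I1 and 11.63 and 12.52 in M1, against 12.62 and 12.66 in BL185. By this probe set both selected lines lay below the parent by less than 1 log2 unit. By the other, 1416487_a_at, I1 was lower by −0.55. There M1 overlapped BL185 (−0.35, or 0.01 without M1 replicate 1). Of 12 receptors and partners of Spp1 and Cd24a, all measured, 0 passed in either line. Their medians were 0.13 in I1 and 0.18 in M1, or 0.08 in M1 without M1 replicate 1.

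The genes whose patterns were most like those of the members were found by the root mean square difference between centred log2 values over the 6 arrays, among 4968 genes with an SD of at least 0.5. They are given as a description, since the arrays are shared and, for Prom1, Sox9 and Sox4, most of the pattern is the difference between lines. For Tbx3 the widest gap was that between the 2 M1 arrays (8.84 and 7.17). Nearest to Prom1 were the small nucleolar RNA host genes Snhg16 and Snhg12 (differences of 0.124 and 0.136 log2 units) and 5430416N02Rik (0.128). Snhg16 averaged 9.70 in I1 and 9.52 in M1, against 12.19 in BL185. Nearest to Sox9 were Clybl (0.076), the receptor gene Lgr6 (0.092) and the purinergic receptor gene P2rx4 (0.092), and P2rx4 averaged 10.15 in I1 and 9.46 in M1, against 11.39 in BL185. Nearest to Sox4 were the class I histocompatibility gene H2-D1 (0.029), Mxi1 (0.043) and Wdr13 (0.044). Nearest to Tbx3 were Nefh (0.037), Sh3d21 (0.042) and Rab27a (0.046). Cd24a and Onecut1 varied too little over the arrays (SD 0.23 and 0.46) to be matched.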

How the data were processed

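Affymetrix mouse arrays were hybridised with labelled RNA from I1, M1 and BL185 cells. Log2 values per probe set were deposited by the authors, made with RMA and the affy package per the submitters' processing notes. Versions and settings are unstated there, and the log2 scale was read from the values (5.80 to 15.4). Of 45101 probe sets, 34945 named 1 gene, 34741 of these were matched to RefSeq by Entrez identifier, and 0 symbols changed. No sample column went unused (0).

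Groups came from sample titles. Members and lists were chosen with earlier results of these data known. Line means for 18193 genes on 6 arrays were compared with limma 3.58.1 (R 4.3.3), with 3 residual and 2.27 prior degrees of freedom and Benjamini-Hochberg adjustment over all genes within a contrast. The fit was tested on simulated data. SEs pool the spread of the 3 lines. Named genes were the members, up to 4 called genes per list, direction and contrast, 18 genes named whatever they showed, of which 17 were measured, and the 3 nearest patterns per member. Krt8, Krt18, Cftr and Rbpj were added after their values were seen. Python 3.11.15 with numpy 2.4.6, pandas 2.3.3 and matplotlib 3.10.9 made tables and figures. Alternatives changed the normalization, the minimum signal (mean log2 of 8), the probe set rule, an added linear value of 50, the eBayes options, the replicate block, the arrays in the fit and the threshold (0.01), and left out each array.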

Additional observations from a re-analysis of the deposited data

Results flagged for a closer look

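Among the members and the named genes, Krt19 and Hnf4a were picked out because both I1 arrays lay above the BL185 mean and both M1 arrays below it. The I1 minus M1 difference was 0.38 for Krt19 and 0.82 for Hnf4a, and neither passed limma (adjusted p = 1 for each, over 18193 genes). Without M1 replicate 1 the differences were 0.29 and 0.41 (limma adjusted p = 0.153 and 0.0799). Of the 4 Hnf4a probe sets 3 were higher in I1 than in M1 without overlap, and the fourth overlapped. Against BL185, however, I1 was higher in 1 of the 4, lower in 1 and overlapping in 2. The opposite directions were thus seen with the brightest Hnf4a probe set alone. Krt19 lay at the 99.7 percentile or higher on every array, a range in which array signals can saturate.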

How the results depend on the processing

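Prom1, Sox9 and Sox4 were lower than BL185 in both lines under each setting run: Prom1 by −2.46 to −2.81 in I1 and −2.70 to −3.13 in M1, Sox9 by −1.05 to −1.40 and −1.38 to −2.32, and Sox4 by −0.62 to −0.89 and −0.84 to −1.66. Between the selected lines Sox9 stayed higher in I1, by 0.33 to 0.97. Leaving out each array gave −0.019 to 0.40 for Prom1, −1.05 to 0.076 for Onecut1 and −0.83 to 0.83 for Tbx3, both ends of the last called, whose difference was also 0.10 after cyclic loess and 0.074 after median centring. For these moves the cause was not tested.

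Counts of called genes depended on the settings. I1 minus M1 gave 0, but 51 after cyclic loess (42 higher, 9 lower), 6 after quantile normalization (6 higher), 1 with a mean log2 of at least 8, and 0 to 10365 with an array left out, where both counts above 0, 3746 and 10365, came from leaving out an M1 array. M1 minus BL185 gave 160 (50 higher, 110 lower), but 5 at an adjusted p of 0.01, 1831 after cyclic loess (847 higher, 984 lower), 1176 after quantile normalization (633 higher, 543 lower), 57 after median centring (5 higher, 52 lower), 338 with the mean of probe sets, 243 with every probe set, 0 with only the lines compared, and 0 to 12879 with an array left out. I1 minus BL185 gave 93 (35 higher, 58 lower), but 3 at 0.01, 1544 after cyclic loess (765 higher, 779 lower), 981 after quantile normalization (608 higher, 373 lower), 23 after median centring (2 higher, 21 lower), 172 with every probe set, 8481 with only the lines compared, and 0 to 8481 with an array left out.

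With the replicate number as a replicate block the counts were 38 in M1, 1 in I1 and 0 between them, and Sox11, Bicc1 and Fgb lost their calls in M1 (limma adjusted p = 0.077, 0.0747 and 0.0889), as did Cd68 in I1 (0.0728). Sox11, Bicc1 and Fgb also lost them after median centring (0.0972, 0.0972 and 0.0856), with robust eBayes (0.056, 0.0532 and 0.056) and with only the lines compared (0.243, 0.246 and 0.252), as did Cd68 there (0.148). Sox11 lost its call with the mean of probe sets (0.155), every probe set (0.0506) and 50 added (0.0529), and Fgb with every probe set (0.050). Jag1 was called in M1 after cyclic loess (0.0163), quantile normalization (0.0277) and with the mean of probe sets (0.0176, and 0.0382 in I1). The labels do not say that the numbers pair the arrays, and the main fit took them as unpaired. Replicate differences correlated at 0.369 between M1 and I1, 0.161 between I1 and BL185 and −0.131 between M1 and BL185. The 3′ probe set of the control DapX was lower in replicate 1 of each line. It read 11.426 and 12.059 in I1, 10.355 and 11.713 in M1, and 11.118 and 11.848 in BL185. The 3′ probe sets of LysX, PheX and ThrX went the same way. Whether arrays of the same number were processed together was not tested. Crossing the numbers of BL185, a choice made after seeing the data, gave 76 in M1.

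Several genes that did not pass limma changed sign against BL185. In M1, cyclic loess and quantile normalization gave 0.30 and 0.29 for Onecut2, −0.050 and −0.016 for Tbx2, 0.025 and 0.020 for Notch2, and 0.45 and 0.46 for Hes1. Krt18 gave 0.064 and 0.081 under the same 2 settings. Median centring gave −0.094 for Cdh1, −0.062 for Tbx2 and −0.025 for Krt8 in M1, and −0.026 for Krt18 in I1. The mean of probe sets gave −0.66 for Epcam and 0.051 for Notch2 in M1, and −0.15 for Epcam, −0.015 for Hnf4a and −0.043 for Onecut2 in I1. With an array left out, the M1 values ran from −0.31 to 0.37 for Cdh1, −0.12 to 2.63 for Afp, −0.66 to 0.34 for Onecut2, −1.07 to 0.20 for Notch2, −0.32 to 0.31 for Hes1 and −0.094 to 0.055 for Krt18, and the I1 values from −0.11 to 0.29 for Onecut2 and −0.036 to 0.088 for Krt18. In each of these M1 ranges the ends came from leaving out one or the other M1 array. Signals near the array medians limit what Onecut1, Tbx3, Tbx2, Krt7, Afp and Alb can show.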

Other observations

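Cftr, the chloride channel of cholangiocytes, was singled out after its values were seen. It read 9.81 and 9.86 in I1 and 6.63 and 8.19 in M1, against 10.56 and 10.47 in BL185. The difference from BL185 was −0.68 ± 0.51 in I1 and −3.11 ± 0.51 in M1 (SE, limma adjusted p = 0.678 and 0.0746), and I1 was 2.42 above M1 (adjusted p = 0.892). Without M1 replicate 1, M1 was −2.33 from BL185 and I1 was 1.65 above M1, and both were called (limma adjusted p = 2.29e-08 and 6.4e-06). The M1 difference was also called after cyclic loess (0.0129) and with a mean log2 of at least 8 (0.0429). The M1 values lay about the array medians or below, so the size is not exact. All these are values of 1420579_s_at. The other Cftr probe set, 1427767_a_at, lay between 6.0 and 6.34 on all arrays. By it I1 and M1 each differed from BL185 by −0.24, and I1 minus M1 was −0.01.

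Rbpj, the DNA-binding partner of Notch, was also chosen after its values were seen. It read 10.85 and 11.08 in I1 and 9.30 and 11.02 in M1, against 12.11 and 12.10 in BL185. All 4 arrays of the selected lines were below the parent, by a mean of −1.14 in I1 and −1.94 in M1 (limma adjusted p = 0.545 and 0.22), or −1.08 in M1 without M1 replicate 1, when both were called (limma adjusted p = 3.8e-06 and 6.91e-05). In M1 it was also called after cyclic loess (0.0328).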
